A study of Drosophila melanogaster with 6 samples.

Results

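The genes described are the nuclear subunit genes of cytochrome oxidase (complex IV) and ATP synthase (complex V) in fly heads. They are every gene in the files whose FlyBase symbol starts with *COX* or *ATPsyn*, which gave 31 of 17559 genes: 16 *COX* genes and 15 *ATPsyn* genes. The symbols of 12 of them end in L or L2 and mark paralogs of another subunit gene. The other 19, called the main subunit genes here, are 8 *COX* and 11 *ATPsyn* genes.

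RNA was measured by sequencing in 6 libraries of whole heads of *Drosophila melanogaster*, in 2 control groups of 3 libraries. The RT control carried w[1118],Elav-GAL4/w[1118] and was reared at room temperature. The Dicer2 25C control carried an *Elav-GAL4* driver together with UAS-Dicer2/+, which adds the RNAi enzyme Dicer2, and was reared at 25°C. Both groups were F1 females that carried the pan-neuronal *Elav-GAL4* driver and had the VDRC stock v60000 as their control stock, with no gene knocked down. Each library came from 35 to 40 pooled flies, age was not given in the labels, and the study calls the 3 libraries of a group biological replicates. UAS-Dicer2, the driver stock and the rearing temperature differed together, so their parts in any difference between the groups cannot be told apart. The driver acts in neurons, whereas the RNA came from every cell type of the head.

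Cytochrome oxidase is the last enzyme of the mitochondrial respiratory chain. It passes electrons from cytochrome c to oxygen and pumps protons, and ATP synthase lets the protons flow back and uses that flow to make ATP. Both enzymes combine subunits encoded in the mitochondrial genome with subunits encoded in the nucleus, and neurons, photoreceptors and muscle depend heavily on them. In flies, many duplicated copies of such genes are known to be expressed mainly in the testis.

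Library totals ran from 18651266 to 25183878 counts in the Dicer2 25C control and from 33898008 to 42487803 in the RT control. Dicer2 25C replicate 1 had 69361668 alignments set aside as not unique, against 7164088 to 8454145 in the other 5 libraries. Levels are given as CPM, the counts of a gene scaled to a fixed library total, after TMM scaling, which balances the bulk of genes between libraries. The floor of 3 counts corresponded to 0.0706 to 0.161 CPM, depending on the library, and covers counting error only. Of the marker lists, the summed level in the Dicer2 25C and then the RT libraries was 3127 to 4250 and 3154 to 3305 CPM for neurons, 1748 to 2142 and 2200 to 2579 for glia, and 46186 to 59628 and 37212 to 38167 for photoreceptors. The neuron marker *elav* and the photoreceptor marker *ninaE* were present in every library.

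The 31 genes fell into separate levels of expression. All 19 main subunit genes were abundant: in single libraries they ranged from 161 to 2658 CPM, and none had fewer than 4216 counts in any library. Of the 12 paralogs, *COX7AL2* reached between 28.8 and 69.3 CPM, and the other 11 stayed below 1 CPM in every library, with a highest value of 0.853 CPM. Together the 16 *COX* genes held 0.312% to 0.334% of the counts of each Dicer2 25C library and 0.262% to 0.273% of each RT library. The 15 *ATPsyn* genes held 0.801% to 0.955% and 0.699% to 0.771%.

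**Figure D1:**
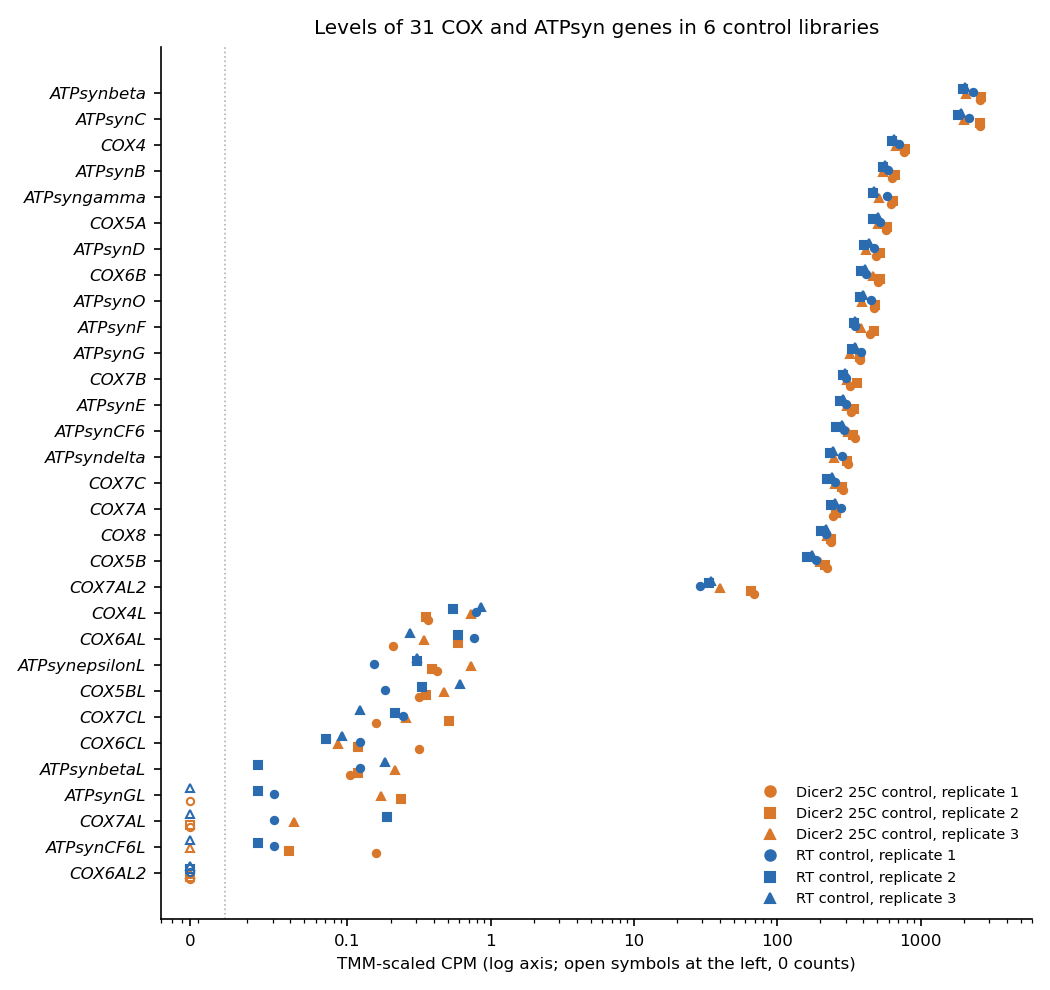
Levels of the 31 genes, 1 row per gene, as TMM-scaled CPM on a log axis, with 1 symbol per library. The 19 main subunit genes lie between 161 and 2658 CPM, *COX7AL2* stands alone between 28.8 and 69.3 CPM, and 11 paralogs lie below 1 CPM, with 0 counts drawn as open symbols at the left.

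*ATPsynbeta* and *ATPsynC* led the *ATPsyn* genes. *ATPsynbeta* (FBgn0010217, chromosome 4, 1031484 to 1034917, plus strand) encodes the catalytic subunit of the F1 head. It was measured at 2591, 2658 and 2064 CPM in Dicer2 25C replicates 1 to 3 and at 2327, 1984 and 2051 CPM in RT replicates 1 to 3. It ranked 27th and 36th by mean CPM among the 10187 genes that passed the expression filter in the 2 groups. *ATPsynC* (FBgn0039830, 3R, 31216145 to 31219630, minus strand) encodes the subunit that forms the proton-carrying ring of the membrane part, and was measured at 2587, 2616 and 2011 CPM and at 2172, 1822 and 1911 CPM. In both genes Dicer2 25C replicates 1 and 2 were highest, Dicer2 25C replicate 3 lay inside the RT range, and the groups overlapped. These 2 genes held 55.5% of the summed *ATPsyn* CPM in the Dicer2 25C control, and 54.3% of it in the RT control.

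*COX4* (FBgn0032833, 2L, 19958713 to 19960065, plus strand) had the most counts of the *COX* genes. It encodes one of the larger nuclear subunits, which spans the inner membrane beside the catalytic core. Its levels were 768, 774 and 670 CPM in the Dicer2 25C control and 706, 635 and 655 CPM in the RT control. Here too the groups overlapped, through Dicer2 25C replicate 3 and RT replicate 1. The mean CPM of the 19 genes stood between the 91.1 and 99.7 percentiles of the tested genes in the Dicer2 25C control and between the 88.2 and 99.7 percentiles in the RT control.

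Levels of different genes were compared per kilobase of exon, using the union of each gene's exons in the BDGP6.54 annotation. Among the *COX* genes the highest was *COX7B*, at 792 ± 67.7 CPM per kilobase in the Dicer2 25C control, with 706 ± 15.2 in the RT control (SD, n = 3). *COX5A*, a subunit on the matrix side, followed at 699 ± 52.0 and 624 ± 33.0. *COX6B*, a subunit on the intermembrane side, had 630 ± 35.1 and 510 ± 19.2, and *COX4* had 599 ± 47.5 and 540 ± 30.0, so these neighbours changed places between the groups, and their ranges overlapped in each group. On exon length the rest of the order was the same in both groups: *COX8* at 455 and 416, *COX7A* at 364 and 367, *COX7C* at 321 and 280, and *COX5B*, the zinc-binding matrix subunit, at 290 and 239. In the Dicer2 25C control the ranges of *COX8* and *COX7A* were apart and those of *COX7C* and *COX5B* overlapped. In the RT control *COX8* and *COX7A* overlapped and *COX7C* and *COX5B* were apart. This order depends on the length used. On the shortest annotated transcripts *COX4*, *COX6B* and *COX5A* had 1009, 897 and 876 CPM per kilobase in the Dicer2 25C control, all above *COX7B* at 792. On canonical transcripts *COX7A* was above *COX8* in the RT control, at 452 and 416, but below it in the Dicer2 25C control, at 448 and 455.

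Among the *ATPsyn* genes, *ATPsynC* had 1287 ± 183 CPM per kilobase in the Dicer2 25C control, then 1054 ± 97.2 in the RT control, and *ATPsynbeta* had 1022 ± 136 and 889 ± 76.1. On exon length their ranges overlapped in the first group and were apart in the second. A middle set of 8 genes followed, from 407 (*ATPsyngamma*) to 708 (*ATPsynF*) in the Dicer2 25C control and from 348 (*ATPsyngamma*) to 618 (*ATPsynB*) in the RT control. It holds the peripheral stalk genes *ATPsynB*, *ATPsynD*, *ATPsynO* and *ATPsynCF6*, the membrane subunits *ATPsynE*, *ATPsynF* and *ATPsynG*, and the rotor shaft gene *ATPsyngamma*. Within this set every pair of neighbours in the Dicer2 25C order overlapped. The distance between the top genes depends on the length used. On the shortest annotated transcripts *ATPsynC* had 3331 and 2726 CPM per kilobase in the Dicer2 25C and RT controls. *ATPsynbeta* had 1444 and 1256 on that length.

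*ATPsyndelta*, a rotor gene, came last at 75.9 ± 9.28 and 66.4 ± 6.85 CPM per kilobase, apart from the next gene in both groups. That place depends on the length used. Its exons cover 3817 bases in the annotation, against 666 bases in its shortest annotated transcript, on which it would reach 435 and 381 CPM per kilobase. Its plain level was 249 to 312 CPM in the Dicer2 25C control and 233 to 283 CPM in the RT control. Exons of *CG2962* on the opposite strand cover 35.6% of the *ATPsyndelta* exon bases, and the strand setting of the counting was not given in the sources used here.

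**Figure D2:**
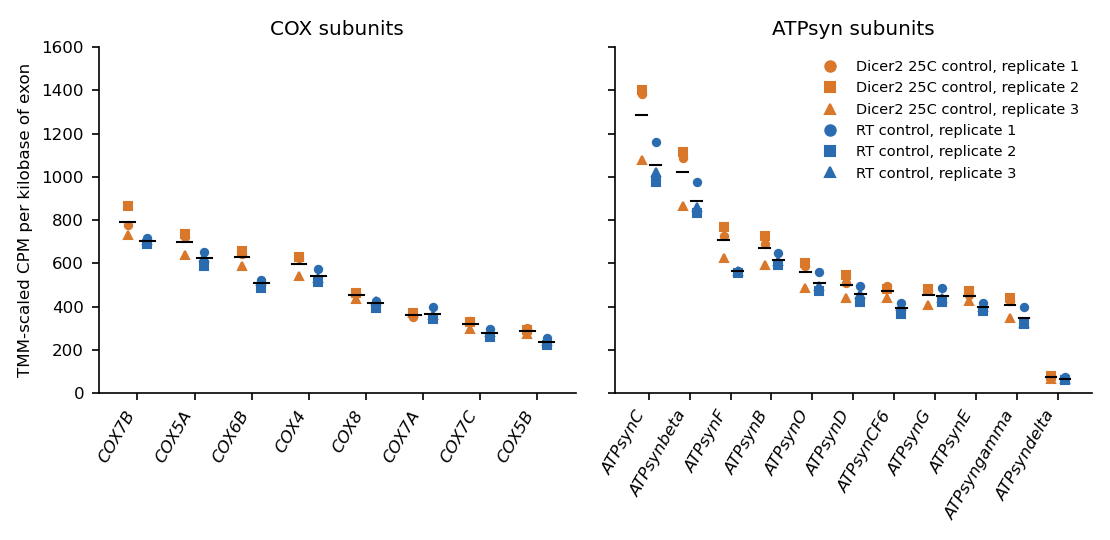
Level of the 19 main subunit genes as TMM-scaled CPM per kilobase of exon, with 1 symbol per library and a bar at each group mean (n = 3). *ATPsynC* and *ATPsynbeta* stand above the rest, with means of 1287 and 1022 in the Dicer2 25C control, and *ATPsyndelta* lies lowest at 75.9.

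Ratios of level per length were taken between some partners in the same enzyme. The ratio of *ATPsynbeta* to *blw*, which encodes the alpha subunit that pairs with beta in the F1 head, was 0.832 to 0.927 over the 6 libraries. The ratio of *ATPsyngamma* to *ATPsynbeta* was 0.379 to 0.409, and that of *COX4* to *COX5A* was 0.842 to 0.879. The ratio of *COX7A* to *COX4* was 0.565 to 0.696. In these 4 ratios the groups overlapped. In 3 others they did not. *COX6B* over *COX4* was 1.03, 1.04 and 1.08 in the Dicer2 25C control and 0.914, 0.948 and 0.975 in the RT control, and *ATPsynC* over *ATPsynbeta* was 1.24 to 1.28 and 1.17 to 1.19, both lower in the RT control. *ATPsynG* over *ATPsynbeta* was 0.441, 0.432 and 0.471 and then 0.499, 0.508 and 0.513, higher in the RT control. The ratios are descriptions on exon length, their size depends on the length used, and they were not tested.

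The libraries of one group differed in the same way at nearly all main subunit genes. In the Dicer2 25C control, replicate 3 was the lowest library for 18 of 19 genes, the exception being *COX7A*, whereas over all tested genes it was the lowest of its group for 38.9%. In the RT control, replicate 1 was the highest for 18 of 19, the exception being *COX8*, against 43.4% of all tested genes. RT replicate 2 was the lowest of its group for 19 of 19, against 32.6%. On log2 CPM, the median deviation of the 19 genes from their own means was 0.15, 0.18 and -0.05 in Dicer2 25C replicates 1 to 3 and 0.00, -0.18 and -0.10 in RT replicates 1 to 3.

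**Figure D3:**
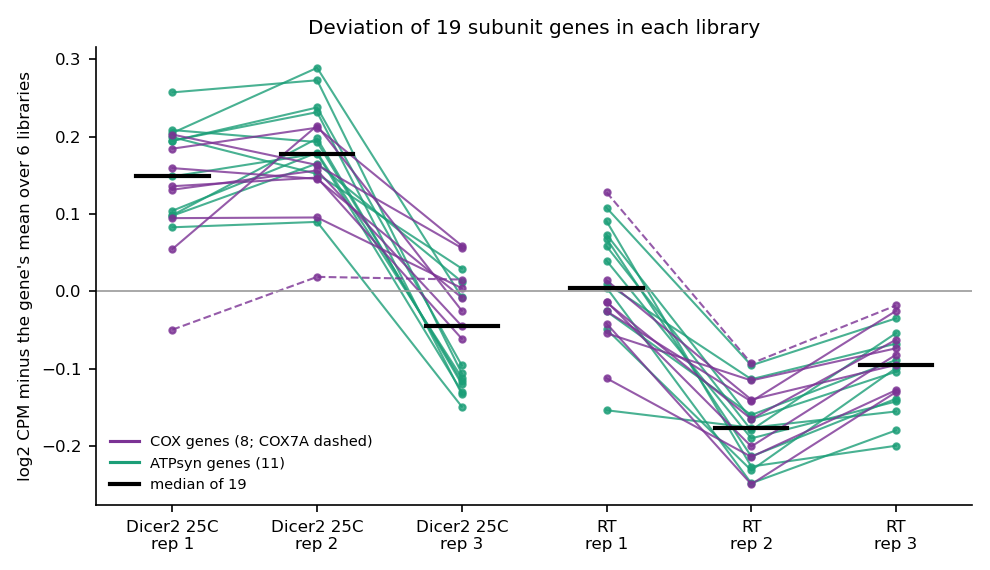
Deviation of each main subunit gene from its own mean over the 6 libraries, on log2 CPM, by library, with 1 line per gene within a group and a bar at the median of the 19. The medians are 0.15, 0.18 and -0.05 in the Dicer2 25C libraries and 0.00, -0.18 and -0.10 in the RT libraries, and *COX7A* (dashed) does not follow the fall to Dicer2 25C replicate 3.

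The size of this spread was ordinary. The highest over the lowest library had a median of 1.18 over the 19 genes in the Dicer2 25C libraries, and of 1.14 in the RT libraries, against 1.20 and 1.16 over all tested genes. What the genes shared was its direction. Over the 171 pairs of main subunit genes, the Pearson correlation of log2 CPM across the 6 libraries had a median of 0.89 and ranged from -0.07 to 0.999. With group means removed the median was 0.91. These correlations describe 6 points that share library, scaling and cell mixture. Genes of the other respiratory complexes had the same lowest and highest libraries: Dicer2 25C replicate 3 was the lowest of its group for 30 of 32 tested complex I genes and 10 of 10 tested complex III genes, and RT replicate 1 was the highest for 27 and 9. Of 5 tested assembly factors of cytochrome oxidase, 0 were lowest in Dicer2 25C replicate 3. In the neuron list 4 of 4 genes were lowest there, and in the photoreceptor list 3 of 5. The most abundant photoreceptor marker, *ninaE*, was instead highest there, at 52725 CPM against 38488 and 39123 in the other Dicer2 25C libraries. The part of these markers in the deviations was not tested.

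In bulk RNA, fewer cells of a type and less RNA per cell cannot be told apart, and this holds for every difference between libraries or groups given here. The comparison of the 2 control groups asks how far subunit levels vary between controls that are both free of knockdown. It was made with the quasi-likelihood test of edgeR over 10187 genes, with Benjamini-Hochberg adjustment over all of them, as the RT control over the Dicer2 25C control.

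None of the tested subunit genes passed an adjusted p under 0.05. Of the 31 genes, 24 passed the filter on low counts: the 19 main subunit genes and 5 paralogs. The count of calls was 0 of 24, beside 10.1% of all tested genes, and 287 genes were called over all with an absolute log2 fold change above 1 as well. At an unadjusted p under 0.05 the count was 6 of 24, or *COX7AL2*, *COX6B*, *ATPsynF*, *COX5B*, *ATPsynCF6* and *ATPsynepsilonL*, beside 30.7% of all tested genes.

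The estimates nevertheless leaned to one side. The log2 fold change was below 0 for 21 of the 24 tested genes and for 18 of the 19 main subunit genes, with *COX7A* at 0.01. Over all tested genes, 50.5% were below 0. The values of *COX7A*, *ATPsynG* (-0.02) and the paralog *COX5BL* (-0.03) changed sign under some other scalings, filters or left-out libraries. The median was -0.17 over the 24 genes and -0.18 over the 19 main subunit genes, beside -0.0038 over all tested genes. It was -0.16 over the 8 *COX* and -0.19 over the 11 *ATPsyn* main genes. The 95% interval of the log2 fold change lay within 1 of 0 for all 19, and the lowest bound was -0.64, for *ATPsynC*. Every RT library was below every Dicer2 25C library for 10 of the 24 genes, of which 8 were main subunit genes, beside 18.0% of all tested genes. Every RT library was above for 0 of 24, beside 19.5%.

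**Figure D4:**
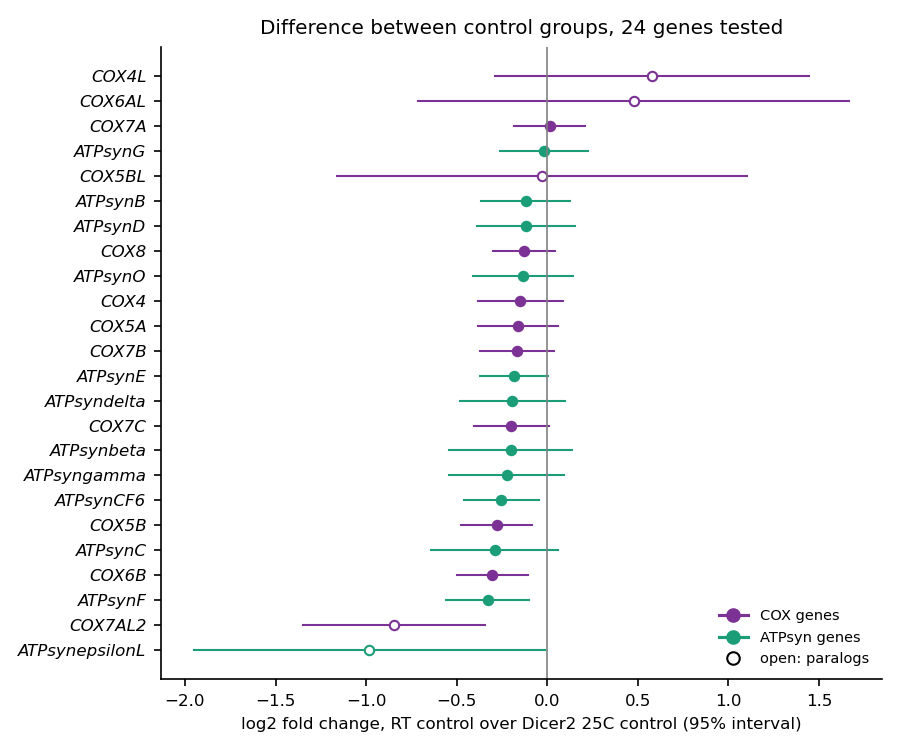
Log2 fold change of the RT control over the Dicer2 25C control for the 24 tested genes, with 95% intervals from the edgeR fit and open symbols for paralogs. Main subunit genes lie between -0.33 (*ATPsynF*) and 0.01 (*COX7A*), and *COX7AL2* lies at -0.85.

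For *ATPsynbeta* the log2 fold change was -0.20 (SE 0.14, 95% interval -0.54 to 0.14), with an edgeR adjusted p of 0.38. For *COX4* it was -0.15 (SE 0.098), with an edgeR adjusted p of 0.35. Neither difference passed the adjusted threshold.

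Among the main subunit genes, 4 had intervals that excluded 0 without passing the adjusted threshold, and they were singled out after their values were seen. *COX6B* (FBgn0031066, X, 19740537 to 19744335, minus strand) was at 508, 518 and 466 CPM in the Dicer2 25C control and at 414, 385 and 409 CPM in the RT control. The groups did not overlap, and the log2 fold change was -0.30 (SE 0.082, edgeR adjusted p 0.062). *ATPsynF* was at 447, 474 and 385 CPM and then at 348, 343 and 348 CPM. Its 3 RT libraries were nearly equal and lay below all Dicer2 25C libraries, with a log2 fold change of -0.33 (SE 0.096, edgeR adjusted p 0.075). *COX5B* was at 221, 215 and 199 CPM and then at 186, 161 and 175 CPM, a log2 fold change of -0.28 (SE 0.082, edgeR adjusted p 0.076). *ATPsynCF6* was at 349, 338 and 310 CPM and then at 294, 259 and 284 CPM, a log2 fold change of -0.25 (SE 0.086, edgeR adjusted p 0.10). Reads that fall in the 9.38% of *COX6B* exon bases shared with *CG18809* on the same strand cannot be assigned to one gene. The tandem paralog *COX5BL* lies 122 bases past *COX5B*.

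The other main subunit genes of complex IV stayed close between groups. *COX5A* ranged over 509 to 585 CPM in the Dicer2 25C control and 468 to 520 in the RT control, and *COX7B* over 306 to 361 and 287 to 300. *COX7C* ranged over 254 to 286 and 222 to 253, and *COX8* over 224 to 238 and 202 to 219. The RT ranges of *COX7B*, *COX7C* and *COX8* lay below the Dicer2 25C ranges, though narrowly for *COX7C*. Their edgeR adjusted p-values were 0.29 for *COX5A*, 0.24 for *COX7B*, 0.18 for *COX7C* and 0.28 for *COX8*. Exons of *oys* on the opposite strand cover 15.7% of the *COX7C* exon bases.

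In complex V, the peripheral stalk genes *ATPsynB* (546 to 668 and 545 to 594 CPM), *ATPsynD* (417 to 520 and 400 to 472) and *ATPsynO* (390 to 483 and 381 to 450) overlapped between groups. So did *ATPsyngamma* (511 to 644 and 467 to 582), and *ATPsynG* (321 to 379 and 334 to 384), a membrane subunit linked in yeast and mammals to the pairing of ATP synthase complexes. *ATPsynE*, which encodes its partner in that role, was the exception with 308 to 342 and 273 to 300 CPM and did not overlap. The edgeR adjusted p-values of these 6 genes and *ATPsyndelta* ran from 0.17 (*ATPsynE*) to 0.93 (*ATPsynG*).

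How many subunit genes passed the threshold depended on a single library and on the scaling. Without Dicer2 25C replicate 3, in which nearly all were low, 6 were called lower in the RT control (*ATPsynC*, *ATPsynCF6*, *ATPsynF*, *COX5B*, *COX6B* and *COX7AL2*), beside 18.6% of the genes tested in that fit. DESeq2 and upper quartile scaling each called 5, beside 18.5% and 11.3%, and scaling by library totals alone called 7, beside 14.1%. The likelihood ratio test, no filter and a minimum of 10 counts in every library each called *COX7AL2* alone, beside 13.4%, 6.43% and 10.8%. Scaling also moved the balance of calls over all genes: 52.2% of the genes at an adjusted p under 0.05 were higher in the RT control with TMM, 38.0% with upper quartile scaling and 27.1% with library totals. Over the 19 main subunit genes, every RT library was below Dicer2 25C replicates 1 and 2 for 17, beside 28.8% of all tested genes, and RT replicate 1 was above Dicer2 25C replicate 3 for 11.

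The gene pair *COX7A* and *COX7AL2* is described on its own, a pair chosen after its values were seen. Both encode versions of subunit 7A, of which mammals have a form of heart and muscle and a form of other tissues. *COX7A* (FBgn0040529, 3R, 8339944 to 8341043, minus strand) was at 246, 258 and 257 CPM in the Dicer2 25C control and at 278, 239 and 251 CPM in the RT control. Its groups overlapped, with a log2 fold change of 0.01 (SE 0.082, edgeR adjusted p 0.93).

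*COX7AL2* (FBgn0085201, 2L, 2192525 to 2197912, minus strand) was at 69.3, 65.4 and 39.6 CPM in the Dicer2 25C control and at 28.8, 33.6 and 34.5 CPM in the RT control. Dicer2 25C replicates 1 and 2 stood well above the other 4 libraries, and Dicer2 25C replicate 3 was nearest to the RT libraries. The log2 fold change was -0.85 (SE 0.21, 95% interval -1.35 to -0.35), and the edgeR adjusted p of 0.051 missed the threshold. Over 15 alternative settings the log2 fold change ran from -1.06 to -0.70, the adjusted p from 0.0016 to 0.17, and the gene was called in 7. It ranked 3202nd by mean CPM in the Dicer2 25C control and 4658th in the RT control.

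Per exon length, *COX7AL2* made up 17.2%, 15.8% and 10.2% of the summed *COX7A* and *COX7AL2* level in Dicer2 25C replicates 1 to 3 and 7.11%, 9.43% and 9.22% in RT replicates 1 to 3. The means were 14.4% ± 3.70 and 8.59% ± 1.29 (SD, n = 3). The shares did not overlap between groups, and 3 against 3 libraries cannot give an exact permutation p below 0.1. Not divided by length, the mean shares were 18.5% and 11.3%. Whether reads of one of these genes could be counted for the other was not tested.

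Muscle markers were, like *COX7AL2*, highest in Dicer2 25C replicates 1 and 2. The summed level of 5 muscle markers was 9258, 9161 and 4625 CPM in the Dicer2 25C control and 3913, 5065 and 5007 CPM in the RT control. *Mhc*, the muscle myosin heavy chain, and *Mlc2*, a myosin light chain, made up nearly all of it. Of the listed flight muscle genes, *fln* and *TpnC4* stayed below 1 CPM in every library, whereas *Act88F* was detected and held most of the small rest of the sum. *Mhc* was at 5878, 5745 and 3026 CPM and then at 2674, 3737 and 3638 CPM, so that in Dicer2 25C replicate 3 it lay below RT replicates 2 and 3, as the sum did, whereas *COX7AL2* there lay above every RT library. *Mlc2* was at 3349, 3391 and 1589 CPM and then at 1222, 1313 and 1354 CPM, with a log2 fold change of -1.10 (edgeR adjusted p 0.057). Of the list, 3 of 5 genes were tested and 0 called, beside 10.1% of all tested genes. The part of muscle RNA in the level of *COX7AL2* was not tested.

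**Figure D5:**
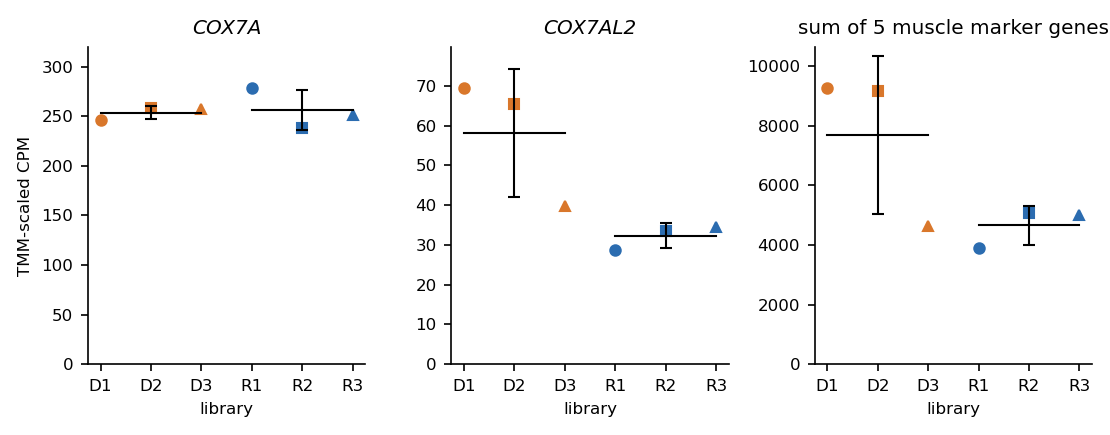
TMM-scaled CPM of *COX7A*, of *COX7AL2* and of 5 summed muscle markers in the Dicer2 25C libraries (D1 to D3) and RT libraries (R1 to R3), with the mean and SD of each group (n = 3). *COX7A* stays between 239 and 278 CPM, while *COX7AL2* and the muscle markers are both highest in D1 and D2, at 69.3 and 65.4 CPM and at 9258 and 9161 CPM.

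The other 11 paralogs were near the limit of detection. Their counts summed over 6 libraries ran from 0 to 110, with at most 28 in a single library, and 7 of the 11 had a count in every library. None made up more than 0.390% of the level that it shared per exon length with its parent subunit gene, a share reached by *COX5BL* in RT replicate 3.

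*COX6AL2*, a paralog of *levy*, had 0 counts in all 6 libraries, which allows up to 0.0706 to 0.161 CPM. Of its exon bases, 67.0% are shared with *Ir75d* on the same strand, where reads cannot be assigned to one gene. *ATPsynCF6L* had 3, 1 and 0 counts in the Dicer2 25C libraries and 1, 1 and 0 in the RT libraries, and *COX7AL* had 0, 0 and 1 and then 1, 8 and 0. *ATPsynGL* had 0, 6 and 4 counts and then 1, 1 and 0. These 4 genes were each without a count in at least 2 libraries.

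*ATPsynbetaL*, a copy of the catalytic subunit, had 2, 3 and 5 counts in the Dicer2 25C libraries and 4, 1 and 6 in the RT libraries, far below *ATPsynbeta*. *COX6CL*, a paralog of *cype*, had 6, 3 and 2 counts and then 4, 3 and 3. *COX7CL*, which lies 281 bases past *COX7C*, had 3, 13 and 6 counts and then 8, 9 and 4. These 3 genes had counts in every library and did not pass the filter.

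The remaining 4 low paralogs passed the filter. *COX4L* was at 0.367, 0.353 and 0.725 CPM in the Dicer2 25C control and at 0.794, 0.545 and 0.853 CPM in the RT control, with a log2 fold change of 0.58 (SE 0.36, edgeR adjusted p 0.33). *COX6AL*, another paralog of *levy*, was at 0.210, 0.588 and 0.341 CPM and then at 0.763, 0.593 and 0.274 CPM, with a log2 fold change of 0.48 (SE 0.50, edgeR adjusted p 0.55). *COX5BL* was at 0.314, 0.353 and 0.469 CPM and then at 0.183, 0.332 and 0.609 CPM, with a log2 fold change of -0.03 (SE 0.47, edgeR adjusted p 0.97). These groups overlapped. All of the *COX5BL* exon bases lie opposite exons of *Trmt6*.

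*ATPsynepsilonL*, a paralog of the rotor gene *sun*, was at 0.419, 0.392 and 0.725 CPM in the Dicer2 25C control and at 0.153, 0.308 and 0.305 CPM in the RT control. The RT libraries lay below the others, on 5 to 17 counts per library, with a log2 fold change of -0.98 (SE 0.41, edgeR adjusted p 0.16). The 95% interval of each of the tested paralogs, *COX7AL2* included, reached past a 1-unit log2 change. For *COX7AL2*, with 929 to 1667 counts per library, that interval excluded 0. The other 4 rested on 4 to 28 counts per library.

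As a set beside the low paralogs, 12 testis markers were also low in these female heads, with a summed level of 4.51 to 5.76 CPM in the Dicer2 25C libraries and 3.34 to 4.15 CPM in the RT libraries. Only 3 of the 12 passed the filter and 0 were called, beside 10.1% of all tested genes. Of the list, *betaTub85D* (1.36 to 1.76 CPM) and *S-Lap1* (1.28 to 3.20 CPM) held most of this level.

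Some subunits of both enzymes have other names. *levy* (subunit 6A) and *cype* (subunit 6C) of cytochrome oxidase and *blw* (alpha) and *sun* (epsilon) of ATP synthase all had log2 fold changes below 0, and all 4 were lowest in Dicer2 25C replicate 3 within their group and highest in RT replicate 1. Of these, *sun* passed the threshold. It was at 246, 253 and 211 CPM in the Dicer2 25C control and at 182, 158 and 167 CPM in the RT control, with a log2 fold change of -0.49 (edgeR adjusted p 0.034), and the groups did not overlap. The call was lost with Dicer2 25C replicate 1 or 2 or RT replicate 2 or 3 left out, with adjusted p-values up to 0.13. *blw* was at 2939, 2878 and 2101 CPM and then at 2536, 2209 and 2245 CPM, and did not pass. The 5 subunit genes of these enzymes in the mitochondrial genome were listed at 0 counts in every library, so the mitochondrial side was not measured here.

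Genes that act with the 2 enzymes were described from lists. Over all tested genes, 10.1% were called and 50.5% had a log2 fold change below 0. Of 10 assembly factors of cytochrome oxidase, 6 had a row, 5 were tested and 0 were called, with log2 fold changes from -0.21 to 0.15. Of 6 regulators of respiratory genes, 6 were tested and 0 were called. Among these regulators 2 were below 0 and the median was 0.09. Every RT library was above every Dicer2 25C library for 3 of them, beside 19.5% of all tested genes. Of 2 listed cytochrome c genes, 1 had a row, and *Cyt-c-p* matched none, so its level was not measured here. The other, *Cyt-c-d*, known for its role in the testis, was at 0.244 to 0.941 CPM. It did not pass (log2 fold change -1.13, edgeR adjusted p 0.083). Of 40 complex I genes, 32 were tested and 0 were called, 29 were below 0 and the median was -0.15. Of 12 complex III genes, 10 were tested and 0 were called, 9 were below 0 and the median was -0.22. The medians of the main subunit genes described here, -0.16 for *COX* and -0.19 for *ATPsyn*, thus lay between those of complexes I and III. They leave out paralogs, whereas the lists of complexes I and III were taken whole. With the tested paralogs included they were -0.16 and -0.20, also between those of complexes I and III. These differences between medians are small and were not tested.

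Carriers supply ATP synthase with its substrates across the inner membrane. The main adenine nucleotide carrier gene *sesB* was at 3798, 3735 and 2798 CPM in the Dicer2 25C control and at 3029, 2632 and 2711 CPM in the RT control, and did not pass (edgeR adjusted p 0.25). The phosphate carrier gene *Mpcp1* was called lower. It was at 643, 625 and 429 CPM and then at 285, 338 and 320 CPM, with a log2 fold change of -0.85 (edgeR adjusted p 0.032), whereas the other phosphate carrier gene *Mpcp2* was at 0.08 on the log2 scale. *Ant2*, the second adenine nucleotide carrier gene, was also called lower, at 7.70, 6.86 and 5.50 CPM and then 3.57, 4.32 and 4.42 CPM (edgeR adjusted p 0.042). Both calls were lost with any 1 library left out other than Dicer2 25C replicate 3, with adjusted p-values up to 0.13 for *Mpcp1* and 0.15 for *Ant2*.

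Other markers moved with the groups as well. The summed level of 5 fat body markers was 14684 to 24030 CPM in the Dicer2 25C libraries and 31591 to 45429 CPM in the RT libraries, and 1 of the 5, the yolk protein gene *Yp3*, was called higher in the RT control (log2 fold change 1.32, edgeR adjusted p 0.032). That call was lost without Dicer2 25C replicate 1 or 2 or RT replicate 2 or 3, with adjusted p-values up to 0.12. The neuron, glia and photoreceptor lists had 0 calls each, beside 10.1% of all tested genes. The sums of the last 2 nevertheless did not overlap between groups. The photoreceptor sum in the RT control was 74.4% of that in the Dicer2 25C control, with 5 of 5 log2 fold changes below 0 and a median of -0.42, the same direction as the subunit genes. The glia sum was 129% of that in the Dicer2 25C control, with 0 of 5 below 0 and a median of 0.13. The neuron sum was 85.4%, with 4 of 4 below 0 and a median of -0.14. RT replicate 1, the RT library with the highest subunit levels, had the lowest fat body level of its group. The Dicer2 25C control did not show this inverse order, with fat body sums of 14684, 24030 and 23476 CPM in replicates 1 to 3. There replicate 2, the highest of its group for 15 of 19 main subunit genes, also had the highest fat body level. The part of these cell types in the subunit levels was not tested.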

How the data were processed

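The values are raw counts per gene, which the authors deposited as separate files for the 6 libraries, neither normalized nor pooled. PolyA RNA libraries from a stranded kit were trimmed with Trimmomatic 0.36, aligned with TopHat2 and counted with HTSeq 0.6.1. The strand, overlap and multiple-alignment settings are not given in the sources used here. Summary entries that name no gene were left out: reads with no feature came to 3.16% to 4.76% of the sum of reads in genes, reads with no feature and ambiguous reads, and ambiguous reads to 2.36% to 3.62%. The Ensembl BDGP6.54 annotation, another release on the same assembly, gave names, coordinates and exon lengths for 17253 of 17559 genes.

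edgeR 4.0.16 (R 4.3.3) was run on the counts with its default filter, TMM scaling and the quasi-likelihood test, which was checked on simulated data. Genes were called at an adjusted p under 0.05, also with an absolute log2 fold change above 1. An SE is the absolute log2 fold change divided by the root of its F statistic. Alternatives were RLE and upper quartile scaling, library totals, DESeq2 1.42.0, the likelihood ratio test, other filters, the replicate number as a block and each library left out. Robust estimation and canonical transcript lengths were added after seeing the data. Python used pandas 2.3.3, SciPy 1.17.1 and matplotlib 3.10.9.

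The subunit genes and gene lists were chosen with earlier results of these data known. Values in every library were due for genes past the threshold, for the *COX* and *ATPsyn* gene with most counts and for the low paralogs, and ranges for the others. Genes given per library beyond this rule were chosen after their values were seen. Replicates differed by more than sampling noise. No sequence was used here, so promoters and similarity between paralogs were not examined, and the knockdown libraries were not analysed here.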

Additional observations from a re-analysis of the deposited data

How the results depend on the processing

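The median log2 fold change of the tested subunit genes stayed below 0 under every alternative run, from -0.27 with library totals to -0.13 without Dicer2 25C replicate 2; with library totals the median of all genes was itself -0.10. The number of subunit genes called was 0 in the main analysis, beside 10.1% of all tested genes. It was 5 with upper quartile scaling, 7 with library totals and 5 with DESeq2, beside 11.3%, 14.1% and 18.5%. The likelihood ratio test, no filter and at least 10 counts in every library called 1 each, beside 13.4%, 6.43% and 10.8%. With 1 library left out the number was 0 to 6. The 6 came without Dicer2 25C replicate 3, beside 18.6%. The number of all genes called, 287, was 437 with DESeq2, 495 with the likelihood ratio test, 1030 with no minimum fold and 33 to 438 with 1 library left out (33 without Dicer2 25C replicate 2, 54 without RT replicate 3, 79 without Dicer2 25C replicate 1, 96 without RT replicate 2, 438 without Dicer2 25C replicate 3).

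With the replicate number as a replicate block, 91 genes and 0 subunit genes were called and the median was -0.17, and the calls of *sun*, *Mpcp1*, *Ant2* and *Yp3* were lost. Same-numbered libraries did not deviate together (r = -0.07, -0.01 and 0.01 over 10187 genes). The r of differently numbered libraries ran from -0.08 to 0.09. With 3 libraries in each group, such values cannot show whether same-numbered libraries were prepared together.

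Values near 0 changed sign. *COX7A* went from 0.013 to -0.043 with upper quartile scaling, -0.086 with library totals, and -0.049 to 0.063 with 1 library left out. *ATPsynG* went from -0.017 to 0.013 with no filter and -0.091 to 0.028 with 1 library left out. *COX5BL* went from -0.031 to 0.00054 with no filter and -0.14 to 0.28 with 1 library left out. The mean *COX7AL2* shares, 14.4% and 8.59%, were 18.5% and 11.3% when not divided by length. The causes were not tested. Canonical transcript lengths moved the level per kilobase of 7 of 19 main subunit genes by more than 1 SD. Depth limits the 11 low paralogs.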
